A study of Homo sapiens with 6 samples.

Results

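The 34 genes described here are transcriptional targets of p53, read in AALE, an airway line that the labels give as basal epithelium of the bronchus transformed with SV40 and hTERT. They were chosen by gene symbol as arrest, death receptor, repair and metabolic targets, and all 34 were found among the 57736 genes of the deposited expected count table. All 34 also passed the filter on low counts, which left 15421 genes. PolyA RNA was sequenced from 3 libraries of cells with a control lentiviral vector and 3 libraries of cells with a lentiviral NRG1 overexpression vector, which encodes neuregulin, a ligand of ERBB receptors. Both groups share the SV40 and hTERT background, the small airway growth medium and selection as stable pools. The labels do not say which SV40 genes the line carries, nor whether the libraries of a group are separate cultures. The spread behind each p-value is that between libraries and may be technical only. The depth was 8612234 to 13207620 expected counts a library. Values listed for a group are always in the order of its library numbers, 1 to 3.

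p53 is a transcription factor that is stabilised by DNA damage and other stress. It then switches on genes that halt the cell cycle, repair DNA, start apoptosis or damp p53 itself. The large T antigen of SV40 is known to bind p53 and hold it in an inactive, stable complex, and it also binds the RB family, so target genes in such a line need not follow the amount of p53. Several of these genes are also switched on by factors other than p53, and p63, the p53 relative of basal epithelium, reads similar sites in DNA.

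In these libraries every p53 target was transcribed, and none passed the test for a difference between NRG1 and control cells. TP53I3, a quinone oxidoreductase gene, and TNFRSF10C, a decoy receptor for the death ligand TRAIL, were the members whose 3 NRG1 libraries all lay above the 3 controls. Such genes made up 5.88% of the 34 members and 9.36% of all genes tested. CDKN1A, the gene of the cell cycle inhibitor p21, was high in NRG1 2 and NRG1 3 but not in NRG1 1. The quasi-likelihood test of edgeR, adjusted over all genes after Benjamini and Hochberg, called 0 of 34 members, where 0.00648% of all genes tested were called (1 gene, NRG1 itself). At an unadjusted p under 0.05 there were 3 members higher (8.82% of the 34, against 5.08% of all genes) and 0 lower (against 6.72%). DESeq2 called 1 member, TNFRSF10C, as higher, where it called 0.597% of all genes higher, 0.759% lower and 1.36% in all.

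Facts of the series that bear on these values were as follows. The targeted gene NRG1 was at 11.6, 7.87 and 12.3 CPM (counts scaled to library size by the TMM method) across the controls and 6647, 3854 and 3781 CPM across the NRG1 libraries. On the first 2 principal components, with 44.5% and 27.3% of the variance, the libraries far from their groups were control 3 and NRG1 1. NRG1 2 and NRG1 3 were the most alike of all library pairs, with a chi-square of 2.73 per degree of freedom over genes against at least 18.4 in the other pairs. That is more than sampling noise, so they were counted as separate libraries. All 12 basal airway markers were detected and tested, among them KRT5 at 3141 to 6952 CPM. Their summed level was 10269 to 14493 CPM in control and 7166 to 8234 CPM in NRG1 libraries, without overlap. Of these 12 markers, 9 had a log2 fold change (NRG1 minus control) below 0, with a median of -0.45. In edgeR 0 were called over all genes, while DESeq2 called 1 higher and 2 lower (0.597% and 0.759% of all genes). At an unadjusted p under 0.05 in edgeR there were 5 lower (41.7%, against 6.72% of all genes) and 2 higher (16.7%, against 5.08%). The summed level of 9 secretory markers was 29.2 CPM in control 3, 61.4 CPM in NRG1 3 and 0.187 to 0.404 CPM in the other 4 libraries, with 0 of 9 tested. Fibroblast markers summed to 45.8 to 71.7 CPM in control and 22.4 to 29.5 CPM in NRG1 libraries, with 3 of 10 tested and all 3 below 0. Leukocyte markers summed to 32.8 to 51.5 and 18.3 to 48.5 CPM (3 of 8 tested, CD3E at 0 in all libraries). Ciliated markers summed to 15.9 to 19.2 and 9.27 to 40.6 CPM, with 5 of 8 tested and all 5 above 0 (median 0.69). Endothelial markers summed to 1.16 to 2.18 and 2.34 to 4.20 CPM (6 of 7 matched by symbol, 0 tested, CDH5 at 0 in all libraries). The part of these marker differences in the results for p53 targets was not tested.

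p53 binds a response element made of 10-base units, here called p53 decamers, set side by side. RefSeq promoter windows (GRCh38.p14, 250 bases before to 50 after a start) were matched by symbol for 25 of the 34 members. Those not matched were GADD45A, PHLDA3, FBXO22, RRM2B, TP53INP1, TNFRSF10A, TNFRSF10B, TNFRSF10C and TNFRSF10D. An exact p53 decamer, whose consensus reads the same on both strands, stood in a window of 7 of the 25 genes (28%), against 8.06% of all 27305 genes in the table. A pair of decamers at most 1 base apart, with at most 2 mismatches in 20 bases and none in the C and G of each core, stood in 4 of the 25 genes (16%), against 0.674% of all genes. These 4 are shown because they are the members whose promoter windows carry a near-complete element. Capitals mark the decamers, and the sequences run 5′ to 3′ on the plus strand, which is also the strand of each gene.
DDB2: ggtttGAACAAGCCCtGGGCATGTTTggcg
AEN: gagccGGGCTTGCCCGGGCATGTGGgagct
FAS: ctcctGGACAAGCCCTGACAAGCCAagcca
MDM2: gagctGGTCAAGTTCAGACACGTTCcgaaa
The DDB2 stretch lies at chr11:47214974-47215003, and its element covers bases 6 to 26 of the transcript that starts there. The AEN stretch lies at chr15:88621301-88621330, with its element 34 to 15 bases before the start. In FAS the stretch is chr10:88991304-88991333, and the element runs from 122 to 103 bases before one of its listed starts. The MDM2 stretch is chr12:68808918-68808947, and the element runs from 94 to 75 bases before a listed start. A match is a description of letters and not a measured binding site. The 4 genes did not share a direction in these libraries, with log2 fold changes (NRG1 minus control) of 0.14 for DDB2, -0.45 for AEN, 0.24 for FAS and 0.19 for MDM2, and none passed the test.

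**Figure D1:**
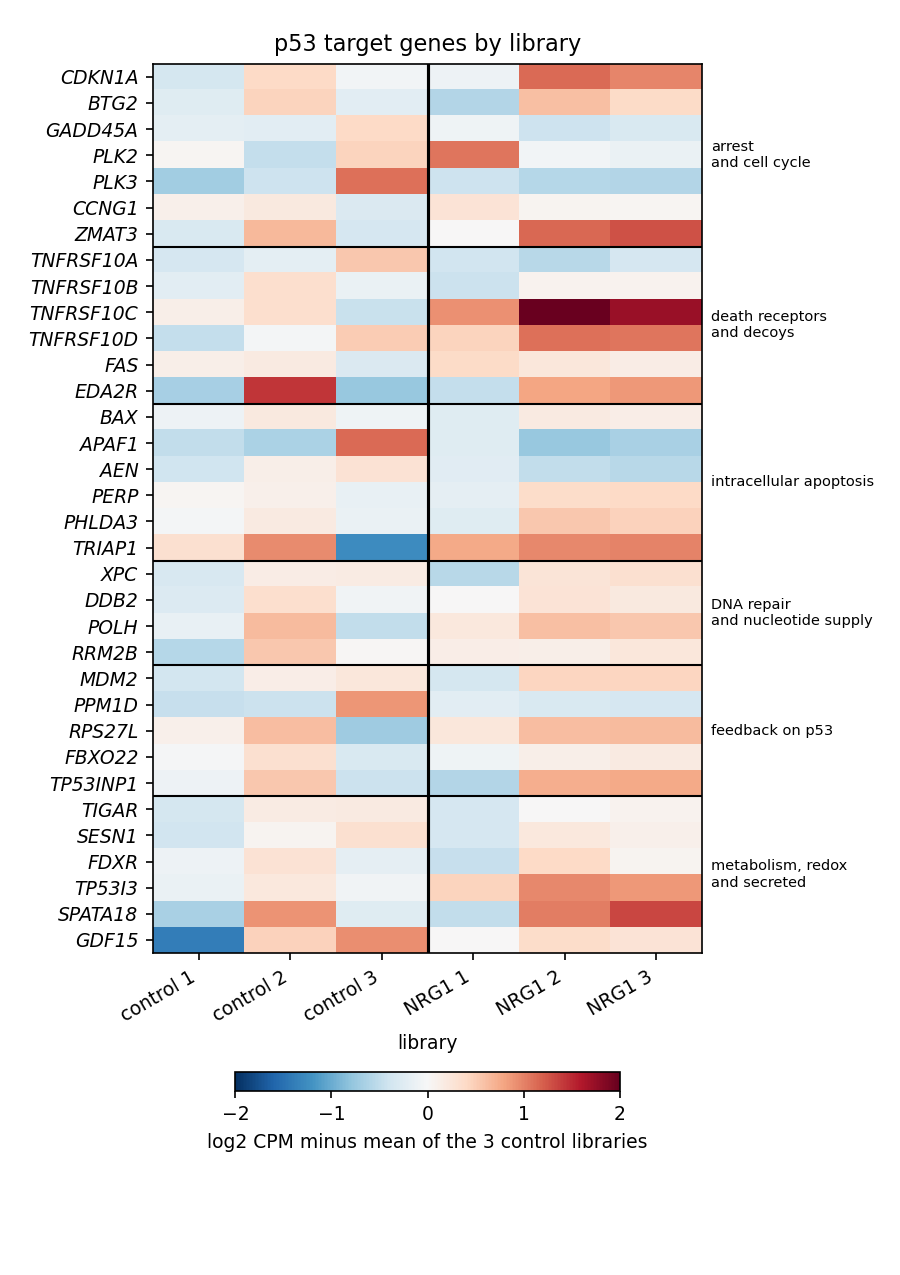
Each row is a p53 target gene and each column a library, coloured by log2 CPM minus the mean of the 3 control libraries, with genes in blocks by role. Control 2, NRG1 2 and NRG1 3 share warm colours in many rows, and TNFRSF10C and TP53I3 are warm in all 3 NRG1 libraries.

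Of the 7 arrest genes, 0 passed the test over all genes and 5 had a log2 fold change above 0. CDKN1A encodes p21, the inhibitor of cyclin-dependent kinases through which p53 halts the cell cycle. Its level was 231, 391 and 284 CPM across the controls and 276, 645 and 580.1 CPM across the NRG1 libraries. The groups overlapped, because NRG1 1 lay below control 2 and control 3 while the other NRG1 libraries lay above every control. It averaged 302 ± 81.4 CPM over the controls and 500.5 ± 197 CPM over the NRG1 libraries (SD, n = 3), a log2 fold change of 0.73 (SE 0.32; adjusted p = 0.427 in edgeR). Per kilobase of exon CDKN1A was the second most abundant member in control cells, at 120.5 CPM per kilobase.

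ZMAT3, which encodes an RNA-binding zinc finger protein, also had control 2 as its highest control and NRG1 1 as its lowest NRG1 library. It was at 26.4, 51.3 and 25.9 CPM across the controls and 33.0, 72.6 and 79.6 CPM across the NRG1 libraries. NRG1 1 lay inside the control range and the other NRG1 libraries above it (log2 fold change 0.85, SE 0.38, adjusted p = 0.432 in edgeR). BTG2, an antiproliferative cofactor of mRNA decay, also had its lowest NRG1 value in NRG1 1, at 42.4 CPM against 96.8 and 83.2 CPM, over a control range of 53.8 to 86.9 CPM.

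The other arrest genes were ordered differently. PLK3, a stress-responsive kinase, was at 16.0, 19.4 and 55.7 CPM across the controls and 19.3, 17.3 and 17.2 CPM across the NRG1 libraries, so control 3 alone stood high. GADD45A, a stress sensor that binds cell cycle and repair proteins, was at 79.2, 78.5 and 119 CPM across the controls and 85.4, 68.0 and 73.5 CPM across the NRG1 libraries, again with its highest value in control 3. Their log2 fold changes were -0.77 (SE 0.45) for PLK3 and -0.29 (SE 0.21) for GADD45A, and that of PLK3 was -0.033 with control 3 and NRG1 1 both left out. PLK2, a kinase of centriole duplication, was highest in NRG1 1, at 79.2 CPM against 26.9 to 51.4 CPM in the other libraries. CCNG1, the cyclin G1 gene, varied least in this role, between 85.7 and 127 CPM. The immediate early genes, which respond to stimulation within minutes, were highest of the controls in control 3 in 13 of 13 tested, where their median was 1.58 log2 units above the control mean against -0.83 and -0.75 in the other controls; their part in the PLK3 and GADD45A values was not tested.

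TRAIL receptors come as signalling receptors with a death domain (TNFRSF10A and TNFRSF10B, also called DR4 and DR5) and as decoys that bind TRAIL without passing on the signal (TNFRSF10C and TNFRSF10D). Both decoys were among the 3 members with the smallest p-values. TNFRSF10C was at 2.5, 2.93 and 1.62 CPM across the controls and 4.45, 9.53 and 8.03 CPM across the NRG1 libraries. All NRG1 libraries lay above all controls, and NRG1 1 was the nearest to them. These levels rested on 21 to 31 expected counts in control and 36 to 102 in NRG1 libraries, so counting error is large, and per kilobase of exon this gene was the least abundant of the 34 in control cells. The log2 fold change was 1.67 (SE 0.40). Its adjusted p was 0.285 in edgeR and 0.0314 in DESeq2, and over all settings the adjusted p ran from 0.0109 to 0.854. A two-sided exact permutation test of its log2 level gave p = 0.1, and a design of 3 against 3 cannot go lower.

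TNFRSF10D was at 18.8, 25.4 and 37.1 CPM across the controls and 35.5, 56.4 and 54.7 CPM across the NRG1 libraries. The groups overlapped only through NRG1 1, which lay just under control 3. Its log2 fold change was 0.85 (SE 0.29; adjusted p = 0.365 in edgeR). The signalling receptors did not lie above control: TNFRSF10A was at 40.5, 44.5 and 74.5 CPM across the controls and 39.2, 34.9 and 40.7 CPM across the NRG1 libraries. TNFRSF10B, the more abundant receptor per kilobase, was at 234, 342 and 247 CPM across the controls and 199.8, 286 and 285 CPM across the NRG1 libraries. Their log2 fold changes were -0.48 (SE 0.25) and -0.096 (SE 0.21), and the difference between decoys and signalling receptors was not tested. The 4 receptors are close copies of each other, and reads that fit several of them can make their counts uncertain. Expected counts of TNFRSF10C were whole numbers in every library, while those of TNFRSF10A were not. The part of shared reads in these values was not tested.

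FAS, the receptor of another death ligand, was at 41.0, 42.5 and 30.7 CPM across the controls and 49.3, 44.0 and 41.9 CPM across the NRG1 libraries. The groups overlapped, with a log2 fold change of 0.24 (SE 0.19). EDA2R, a receptor of ectodysplasin A2, was the most variable member of this role among the controls: control 2 was at 17.2 CPM, against 3.87 and 3.63 CPM in the others. In NRG1 libraries it was at 4.45, 10.9 and 11.6 CPM, all below control 2. Of the 6 receptors, 0 passed edgeR over all genes, and 4 had a log2 fold change above 0.

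**Figure D2:**
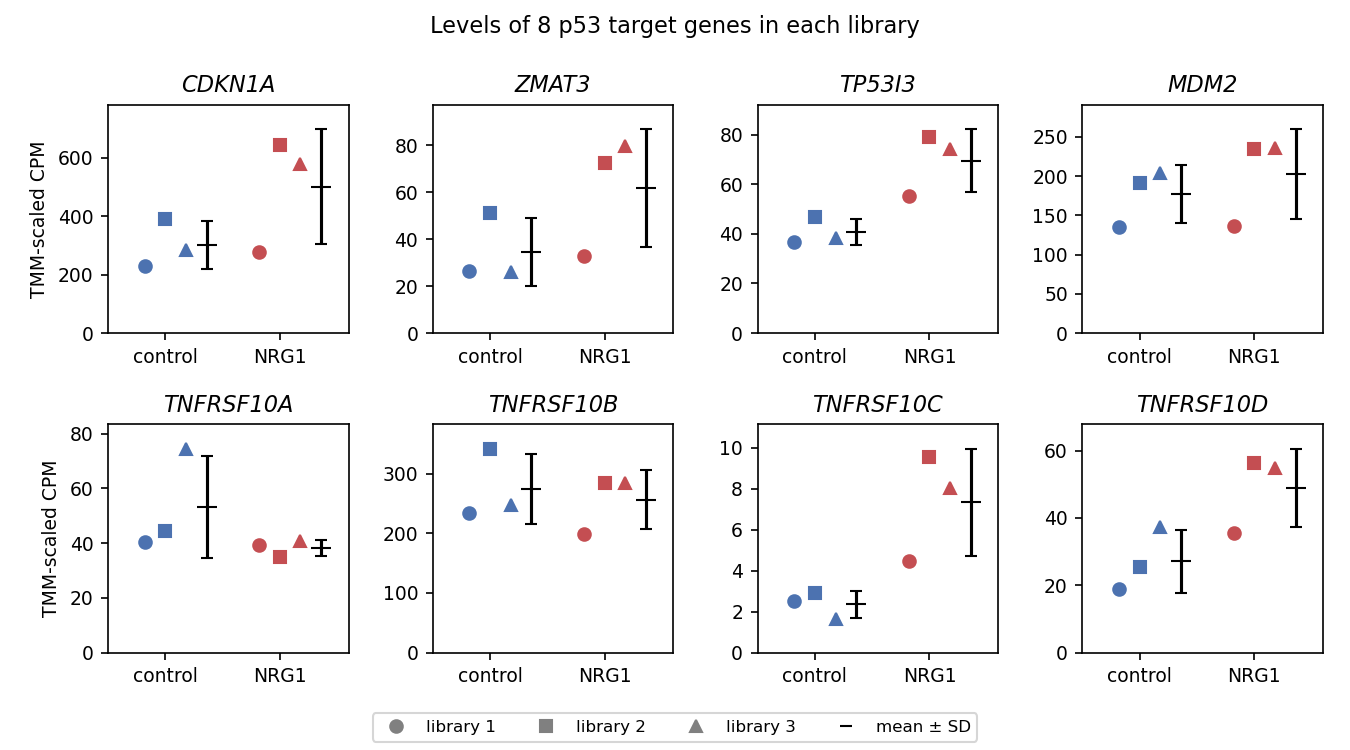
TMM-scaled CPM (vertical axes, from 0) of 8 p53 targets in the 3 control (blue) and 3 NRG1 (red) libraries, with symbols for library number and black bars for mean ± SD. TP53I3 and TNFRSF10C are the genes among them whose groups do not overlap, and NRG1 1 (red circle) is the lowest NRG1 library in all panels but that of TNFRSF10A.

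Among the 6 genes of apoptosis inside the cell, 0 were called and all overlapped between the groups. Of all genes tested, 19.6% did not overlap. BAX, which permeabilises the mitochondrial membrane, was at 63.4, 77.5 and 63.8 CPM across the controls and 57.4, 77.3 and 74.3 CPM across the NRG1 libraries. The ranges were nearly the same, and the log2 fold change was 0.031 (SE 0.18). APAF1, the scaffold of the apoptosome, was at 34.2, 30.9 and 106 CPM across the controls and 40.8, 28.3 and 30.6 CPM across the NRG1 libraries. Control 3 alone set its log2 fold change of -0.78 (SE 0.46), which was 0.019 when that library was left out. AEN, an apoptosis-enhancing nuclease, was at 45.9, 66.0 and 74.2 CPM across the controls and 51.9, 43.0 and 41.4 CPM across the NRG1 libraries (log2 fold change -0.45, SE 0.22, adjusted p = 0.45 in edgeR).

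TRIAP1, a small inhibitor of apoptosome assembly, had 1 low library: it was at 26.7, 41.4 and 8.88 CPM across the controls and 36.6, 41.9 and 42.8 CPM across the NRG1 libraries. Control 2 lay with the NRG1 libraries and control 3 far below. PERP, a desmosomal membrane protein of stratified epithelium, was the most abundant member per kilobase of exon, and ran from 657 to 774 CPM over the controls and from 641 to 956 CPM over the NRG1 libraries. PHLDA3, an inhibitor of AKT signalling, had NRG1 2 and NRG1 3 at 102 and 96.7 CPM, above the control range of 63.8 to 78.8 CPM, and NRG1 1 at 58.8 CPM, below it.

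DNA repair targets likewise overlapped between the groups, as did most genes tested. POLH, the polymerase that copies past ultraviolet lesions, was at 34.3, 59.2 and 27.1 CPM across the controls and 44.0, 57.7 and 55.6 CPM across the NRG1 libraries. Control 2 was again level with NRG1 2 and NRG1 3 (log2 fold change 0.39, SE 0.29). XPC and DDB2, which recognise damage for nucleotide excision repair, ran from 56.7 to 79.5 and from 40.7 to 62.5 CPM over the controls, and from 48.2 to 87.8 and from 49.7 to 59.6 CPM over the NRG1 libraries. RRM2B, the p53-inducible subunit of ribonucleotide reductase, spanned 67.8 to 146 CPM among the controls alone, wider than its NRG1 range of 108 to 118 CPM. All 4 genes had a log2 fold change between 0.043 and 0.39, and 0 were called.

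Among feedback genes, MDM2 encodes the ubiquitin ligase that degrades p53. It was at 136, 191 and 205 CPM across the controls and 136, 234 and 236 CPM across the NRG1 libraries. NRG1 1 matched the lowest control, and the other NRG1 libraries lay above every control (log2 fold change 0.19, SE 0.25, adjusted p = 0.768 in edgeR). PPM1D, the phosphatase that switches off the damage response, was at 59.2 CPM in control 3 and 23.2 to 27.6 CPM in the other 5 libraries. TP53INP1, a p53-regulating stress protein, was at 22.7 CPM in NRG1 1, under all controls (25.2 to 49.7 CPM), while NRG1 2 read 56.8 and NRG1 3 58.0 CPM. RPS27L, a ribosomal protein paralog that acts on MDM2, and FBXO22, a ubiquitin ligase subunit, ran from 20.5 to 51.6 and from 45.6 to 69.9 CPM over the controls, and from 39.3 to 52.4 and from 52.5 to 63.8 CPM over the NRG1 libraries. In this role 0 of 5 genes were called.

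TP53I3, unlike most members and most genes tested, did not overlap between the groups. Its gene product is related to quinone oxidoreductases and is linked to the oxidative side of the p53 response. It was at 36.8, 46.9 and 38.4 CPM across the controls and 55.1, 79.0 and 74.3 CPM across the NRG1 libraries. The lowest NRG1 library lay above the highest control. It averaged 40.7 ± 5.42 CPM over the controls and 69.4 ± 12.6 CPM over the NRG1 libraries (SD, n = 3), and the log2 fold change of 0.77 (SE 0.20) stayed between 0.67 and 0.91 under all settings. The adjusted p was 0.318 in edgeR and 0.0583 in DESeq2, and the two-sided exact permutation test gave p = 0.1.

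GDF15, a secreted stress cytokine, varied more within control than between the groups. It was at 26.4, 96.1 and 132 CPM across the controls and 69.8, 89.5 and 83.9 CPM across the NRG1 libraries. Control 1 was lowest and control 3 highest of all libraries, and the log2 fold change of -0.065 (SE 0.47) changed sign with the setting. SPATA18, a factor of mitochondrial quality control, was at 9.51, 28.2 and 12.7 CPM across the controls and 10.6, 30.7 and 38.4 CPM across the NRG1 libraries. As for CDKN1A and ZMAT3, control 2 was the highest control and NRG1 1 the lowest NRG1 library. TIGAR, a regulator of glycolysis, SESN1, an inhibitor of mTORC1 signalling, and FDXR, a mitochondrial reductase, had log2 fold changes of -0.092, -0.023 and 0.025. In this role 0 of 6 genes were called.

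**Figure D3:**
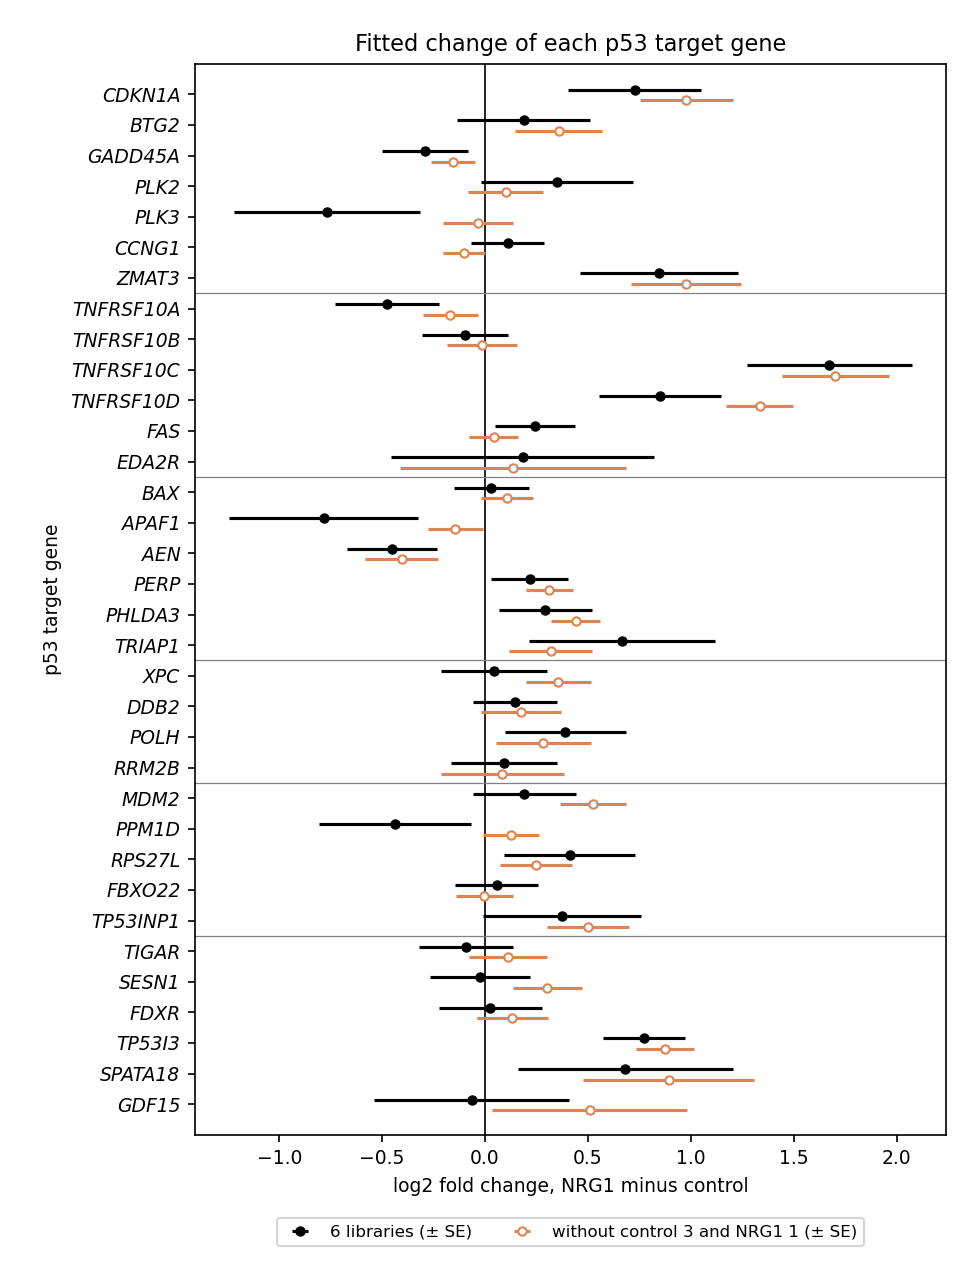
Fitted log2 fold change, NRG1 minus control, of each p53 target with its SE, from all 6 libraries (filled) and from the 4 libraries left without control 3 and NRG1 1 (open). TNFRSF10C lies farthest to the right in both fits, and PLK3 and APAF1 move towards 0 in the second.

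Over the 34 members the median log2 fold change was 0.16, with 24 above 0 and 10 below, against a median of 0.00034 over all genes tested, of which 50.04% lay above 0. In 2 members (5.88%), TNFRSF10C and TP53I3, all NRG1 libraries lay above all controls, and in 0 members below. Over all genes tested the groups did not overlap in 19.6%, with 9.36% higher and 10.2% lower. The members' share therefore lay under that of all genes. With control 3 and NRG1 1 both left out, a comparison chosen after these libraries were seen to stand apart, edgeR called 4 members as higher and 0 as lower, where it called 9.82% of all genes (5.04% higher and 4.79% lower). The 4 were TNFRSF10D (log2 fold change 1.33, adjusted p = 0.00571), TNFRSF10C (1.70, adjusted p = 0.0109), TP53I3 (0.87, adjusted p = 0.013) and CDKN1A (0.98, adjusted p = 0.0372). Leaving out libraries for their distance lowers the spread within groups, which makes such p-values too small.

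Most members shared part of an order of libraries, with control 2 above control 1 and NRG1 1 the lowest NRG1 library. In 13 members control 3 was the highest control and in 13 the lowest (38.2% each, against 40.9% and 40.4% of all genes). Control 2 lay above control 1 in 31 of 34 members (91.2%), against 50.4% of all genes tested, and the exceptions were GADD45A, PLK2 and APAF1. Control 1 was the highest control in 0 members, against 29.9% of all genes. The ratio of control 2 to control 1 was 1.69 for CDKN1A, 1.95 for ZMAT3, 2.15 for RRM2B, 2.96 for SPATA18, 3.63 for GDF15 and 4.43 for EDA2R. Within the NRG1 group, NRG1 1 was the lowest library in 24 of 34 members (70.6%), against 43.5% of all genes. The mean of NRG1 2 and NRG1 3 was 2.22 times the level in NRG1 1 for CDKN1A, 2.31 times for ZMAT3, 2.52 times for TP53INP1 and 3.25 times for SPATA18. As a whole, the median of the 34 members, set against the mean of the controls, was -0.26, 0.21 and -0.083 across the controls and -0.19, 0.32 and 0.25 across the NRG1 libraries, so that NRG1 1 lay inside the control range and NRG1 2 and NRG1 3 above it. In 12 members both NRG1 2 and NRG1 3 lay above every control (35.3%), where 22.5% of all genes did so.

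NRG1 1 also differed from the other NRG1 libraries with the GC content of genes. Over all tested genes its difference from the mean of NRG1 2 and NRG1 3 had a median of 0.22 among genes of the lowest GC (26.9% to 43.2%) and -0.20 among those of the highest (56.8% to 74.2%). The median over members was -0.32 for the 10 of low GC and -0.44 for the 8 of high GC. The part of base composition in the members' values was not tested.

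Relatives and regulators of p53 were measured alongside. TP63 was at 226, 158 and 164 CPM across the controls and 228, 169 and 186 CPM across the NRG1 libraries (log2 fold change 0.087, SE 0.19). TP73, another relative of p53, was at 21.8, 16.95 and 24.2 CPM across the controls and 11.6, 23.5 and 18.3 CPM across the NRG1 libraries (log2 fold change -0.23, SE 0.29). The groups overlapped for both relatives. MDM4, the MDM2 relative that masks p53, was at 46.2, 43.6 and 69.3 CPM across the controls and 34.9, 69.3 and 77.2 CPM across the NRG1 libraries. Of 25 genes for the p53 family and its regulators, 0 passed edgeR over all genes. At an unadjusted p under 0.05 there were 2 lower (8%, against 6.72% of all genes) and 0 higher (against 5.08%). Among the 2 was CHEK2, a damage-activated kinase that phosphorylates p53, with a log2 fold change of -0.77 (SE 0.27). In 4 of the 25 all NRG1 libraries lay above all controls (16%, against 9.36% of all genes), and in 2 below (8%, against 10.2%). Without control 3 and NRG1 1, edgeR called 2 of the 25 higher (8%, against 5.04%) and 1 lower (4%, against 4.79%).

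A further list held 42 direct p53 targets. Of the 41 tested, 28 had a log2 fold change below 0, with a median of -0.15, and 7 lay lower and 1 higher in all NRG1 libraries. Over all genes tested these shares were 10.2% lower and 9.36% higher. PMAIP1, the pro-apoptotic BH3-only protein NOXA, was at 71.3, 84.7 and 99.9 CPM across the controls and 54.8, 40.8 and 45.5 CPM across the NRG1 libraries. These groups did not overlap, and the log2 fold change was -0.86 (SE 0.20; adjusted p = 0.266 in edgeR and 0.0235 in DESeq2). E2F7, a repressor of E2F target genes, was at 92.5, 116 and 206 CPM across the controls and 84.9, 58.6 and 59.4 CPM across the NRG1 libraries (log2 fold change -1.03, SE 0.31). TNFRSF12A, the receptor of TWEAK, and TRAF4, a signalling adaptor, had fitted differences of -0.61 (SE 0.21) and -0.81 (SE 0.30) on the log2 scale. BBC3, the BH3-only protein PUMA, was at 11.9, 20.6 and 53.3 CPM across the controls and 10.8, 14.4 and 12.2 CPM across the NRG1 libraries, so its log2 fold change of -1.20 (SE 0.51) rested on control 3 and was -0.28 without control 3 and NRG1 1. In edgeR 0 of the 41 passed over all genes. An unadjusted p under 0.05 was reached by 6 that lay lower (14.6%, against 6.72% of all genes) and 0 that lay higher (against 5.08%). Without control 3 and NRG1 1, edgeR called 5 of the 41 lower (12.2%, against 4.79% of all genes) and 0 higher (against 5.04%). Control 2 lay above control 1 in 22 of the 41 (53.7%, against 50.4% of all genes), and NRG1 1 was the lowest NRG1 library in 24 (58.5%, against 43.5% of all genes).

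Genes that p53 lowers indirectly, through p21 and the DREAM repressor complex, include those of mitosis. NRG1 1 was the highest NRG1 library in 16 of the 16 listed, against 44.9% of all genes tested and 8 of the 34 p53 targets. Set against the mean of the controls, their median was 0.83, -0.73 and -0.72 across the NRG1 libraries, against 0.29, 0.11 and -0.24 across the controls. CCNB1, the mitotic cyclin B1, was at 235, 162 and 90.6 CPM across the controls and 353, 117 and 115 CPM across the NRG1 libraries. With all 6 libraries edgeR called 0 of 16, and without control 3 and NRG1 1 it called 15 as lower, where it called 4.79% of all genes lower. The one of them with an unadjusted p under 0.05 in all 6 libraries was MYBL2, a partner of the activating form of that complex (log2 fold change -0.84, SE 0.30).

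**Figure D4:**
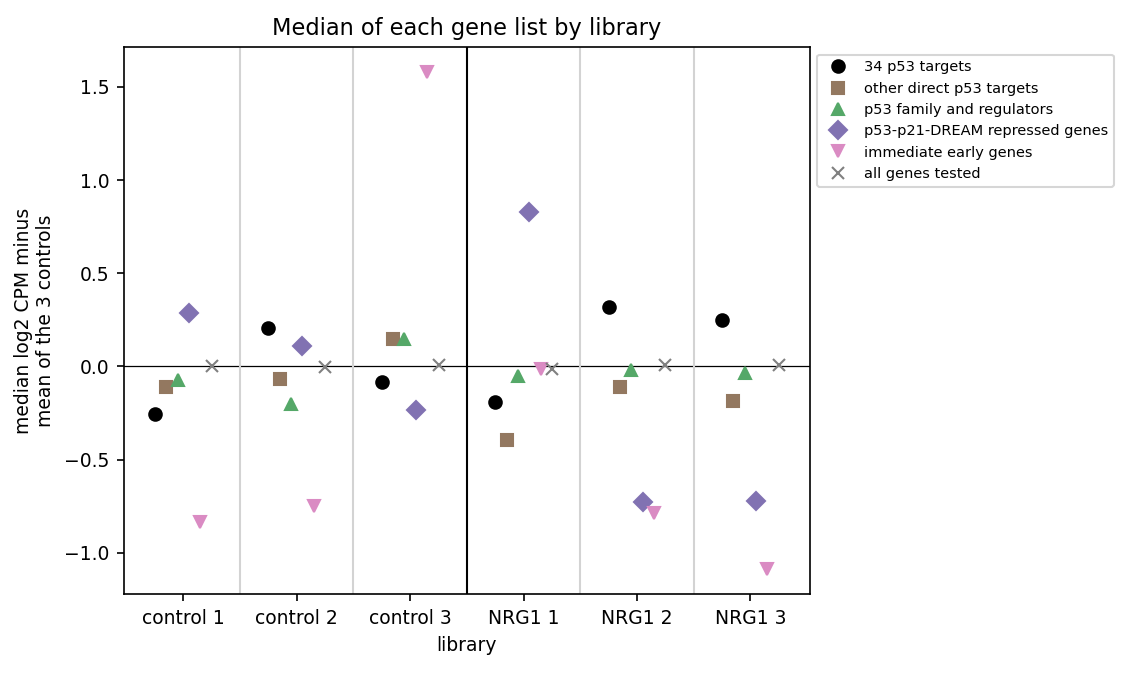
Median over each gene list of log2 CPM minus the mean of the 3 controls (vertical axis), for every library. The 34 p53 targets (black circles) are at 0.21, 0.32 and 0.25 in control 2, NRG1 2 and NRG1 3 and below 0 in the other libraries, while the p53-p21-DREAM repressed genes (purple) reach 0.83 in NRG1 1.

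Genes of the RB pathway, the other target of large T antigen, were measured alongside. CDKN2A, whose products restrain CDK4 and MDM2, was at 197, 162 and 156 CPM across the controls and 189, 147 and 139 CPM across the NRG1 libraries. Of 14 genes 0 passed edgeR over all genes, also with control 3 and NRG1 1 both left out. E2F1, CCNE1 and CCNE2, which drive entry into S phase, lay lower with an unadjusted p under 0.05 (21.4%, against 6.72% of all genes). Their log2 fold changes were -0.70, -0.60 and -0.45, and 0 genes of this list lay higher at that p (against 5.08%). TERT, the gene of telomerase that the line carries as a transgene, was at 129, 167 and 23.5 CPM across the controls and 60.1, 145 and 148 CPM across the NRG1 libraries. Its lowest values were in the libraries that stood apart, control 3 and NRG1 1. Reads of the transgene cannot be told apart from those of the endogenous gene, and the part of this difference in the p53 target values was not tested.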

How the data were processed

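Deposited gene-level expected counts, which were not normalized, were used for 3 control and 3 NRG1 libraries. Library preparation used a TruSeq kit, per the labels' protocols, and the titles gave groups and library numbers. STAR 2.5.3a, RSEM 1.3.0, the quality tools FastQC 0.11.3 and MultiQC 0.9, and hg19 are listed, per the submitters' processing notes, with no role. The gene annotation was not given in the sources used here. The deposited log2 table (14759 genes) was equal, within rounding, to TMM-scaled log2 CPM recomputed here at a prior count of 0.25, and served as an alternative.

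Expected counts were rounded, then filtered with filterByExpr and scaled by TMM in edgeR 4.0.16 (R 4.3.3). The quasi-likelihood test had no covariate, and a Benjamini-Hochberg adjusted p under 0.05 over 15421 genes was the threshold. SEs are the log2 fold change divided by the root of F. At 10 CPM a gene rested on about 86.1 to 132 counts. A name table gave symbols for 51959 of 57736 identifiers, and GENCODE 29, a GRCh38 annotation, gave exonic length and GC content. The tests were tried on simulated data. Alternatives were DESeq2 1.42.0, limma 3.58.1, other scalings and filters, a replicate block and left-out libraries. Control 3 and NRG1 1 left out together, the older dispersion method of edgeR and the deposited log2 table were added after seeing the data. The rule for named genes took the 12 members with the smallest p, CDKN1A, MDM2, GDF15, FAS, BAX and TNFRSF10B, the context genes TP63, TP73, MDM4, TERT, CDKN2A and NRG1, and up to 4 genes of each other list. Further genes named, BBC3, CCNB1, PLK2, SPATA18 and others, were chosen after their values were seen. The members, lists and tests were chosen with earlier results of these data known. One gene of that rule is not reported here.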

Additional observations from a re-analysis of the deposited data

How the results depend on the processing

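Against 1 gene called in the main test, DESeq2 called 209, no filter on low counts 21, and limma-trend on log2(CPM + 1), on log2(CPM + 0.25), limma-voom and the replicate block 2 each; leaving out 1 library gave 1 to 37 (37 without NRG1 1), and leaving out control 3 and NRG1 1 gave 1515. Members called were 0 in the main test, 1 with DESeq2, 0 to 0 with 1 library left out, and 4 without control 3 and NRG1 1. At an unadjusted p under 0.05 there were 3 members in the main test (8.82%, against 11.8% of all genes). There were 5 (14.7%) with DESeq2, with no filter and with the replicate block, against 12.5%, 9.2% and 10.5% of all genes. With 1 library left out there were 2 to 10. The 10 (29.4%, against 12.3% of all genes) were without control 2, and 8 (23.5%, against 17.5%) were found without NRG1 1. The lowest, 2 (5.88%), came without NRG1 2 or without NRG1 3, against 5.56% and 5.12% of all genes. Without control 3 and NRG1 1 there were 9 (26.5%), where 27.4% of all genes did so. The members' median of 0.16 ran from 0.034 to 0.26 with 1 library left out.

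Over 18 settings 18 members kept their sign, and 9 changed it only when 1 library was left out: BTG2 (-0.052 to 0.47), PLK2 (-0.15 to 0.59), PLK3 (-1.07 to 0.013), TNFRSF10B (-0.20 to 0.093), EDA2R (-0.19 to 1.27), BAX (-0.050 to 0.15), APAF1 (-1.08 to 0.019), XPC (-0.10 to 0.27) and RRM2B (-0.15 to 0.40). The other 7 also did so elsewhere. Without control 3 and NRG1 1 these were CCNG1 (-0.10), PPM1D (0.13), FBXO22 (-0.0042), TIGAR (0.11), SESN1 (0.30) and GDF15 (0.51), whose leave-one-out ranges were -0.032 to 0.21, -0.66 to 0.16, -0.088 to 0.23, -0.25 to 0.021, -0.19 to 0.15 and -0.49 to 0.40. With upper-quartile scaling SESN1 was at 0.034 and GDF15 at 0.0022. FDXR (-0.19 to 0.22 with 1 library left out) was at -0.0054 and -0.0060 in limma-trend with pseudocounts of 1 and 0.25, at -0.0028 with the replicate block and at -0.0054 on the deposited log2 values; GDF15 was at 0.21, 0.21, 0.19 and 0.22 there and at 0.23 in limma-voom. None of these members passed the main test, and the cause was not tested.

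Over all genes tested, deviations from the group means correlated at 0.020, 0.12 and -0.080 between libraries of the same number, 1 to 3. Among the 34 members, control 1 was the lowest control in 18 (52.9%, against 30.1% of all genes). NRG1 1 was the lowest NRG1 library in 24 of them (70.6%, against 43.5%). A pairing by number for the members alone was not tested. The labels state no pairing, and the replicate block called 0 members. Depth limits TNFRSF10C and EDA2R most, at under 200 counts per library.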
